A study of Aspergillus niger with 6 samples.

Results

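The comparison described here sets mycelium of Aspergillus niger that had received glucose for 5 h after 24 h on willow against mycelium taken at 24 h on willow. It is made between 4 of the 6 libraries of the study, 2 for each of these conditions, chosen by culture condition in their titles. It covers all 15431 genes listed in each. Aspergillus niger is a filamentous fungus used to make enzymes and citric acid, and all libraries come from mycelium of its laboratory strain N402, for which the labels name no genetic change. Every culture started from spores in shake flasks at 28 °C and grew for 48 h in medium with 1% glucose. For the willow cultures that mycelium was collected, washed without a carbon source, and moved, at 1.5 g wet weight per flask, to medium with 1% willow that had been ground in a ball mill. The willow group was taken after 24 h there, and the glucose-added group after a further 5 h with glucose, whose amount the labels do not give. The remaining 2 libraries, from mycelium taken after 48 h on glucose, serve as a level to set values beside. They were also part of the fit, and so entered the choice of genes tested, the scaling and the estimate of spread. None of the libraries used here is from willow kept for the extra 5 h without glucose, so added glucose and longer culture cannot be told apart, and all changes below are after both. The cultures of a condition are called duplicates by the design text and are named A and B.

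Fungi that live on wood secrete mixtures of enzymes that cut cellulose, xylan, mannan and pectin into sugars, which the hyphae take up. In Aspergillus, genes for many of these enzymes are switched on by the transcription factor XlnR in the presence of xylose, and are held down by the repressor CreA when glucose is present, which is known as carbon catabolite repression. Glucose is itself broken down through glycolysis, the citric acid cycle and respiration, while starch-degrading enzymes are under a separate activator, AmyR.

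Willow cultures A and B gave 557114 and 434508 reads on genes, and the glucose-added libraries 775667 and 437314. Over the 6 libraries, reads on genes were 1.46% to 3.15% of all reads, and 58.4% to 75.7% of reads aligned to several places and were counted to no gene. Levels are given as CPM, read counts brought to a common library size with TMM factors, in the order A and B. Of the 15431 genes, 6181 had enough counts to be tested. Within a condition the median gene differed 1.42-fold between A and B on willow and 1.37-fold after glucose. A level of 3 counts over both libraries of a group, which are 3.66 CPM on willow and 2.42 CPM after glucose, served as the floor for genes without a count. Counting limits and intervals given here cover counting error only. As a check of the material, the 3 identifiers listed for conidiation, which have no symbol in the reference table used, summed to 206.8 and 174.4 CPM on willow and to 155.6 and 115.6 CPM after glucose.

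Of the 59 genes listed for wall degradation, 44 had enough counts to be tested. After 5 h with glucose, 38 of these were lower than on willow, 2 were higher and 4 did not pass. Of 7 genes listed for fermentation, gluconeogenesis and the glyoxylate cycle 5 rose and 2 fell. All 4 listed for the citric acid cycle and organic acids rose. By the quasi-likelihood test of edgeR, adjusted after Benjamini and Hochberg, 2336 of the 6181 tested genes (37.8%) passed an adjusted p of 0.05. Of these, 1066 (17.2% of those tested) were higher and 1270 (20.5%) lower after glucose addition. Every count of called list members given here is to be read beside these shares. Falls reached larger sizes than rises: 107 genes fell and 25 rose by an estimated 64-fold or more, and 30 fell and 3 rose by 256-fold or more. These fitted sizes include genes with few or no counts in 1 condition, for which they depend on the prior count of the fit and are no bounds. Among called genes the median log2 fold change was 1.91 for those higher and -2.27 for those lower, and over all tested genes it was 0.04. Groups that do not overlap were common: in 34.5% of tested genes both glucose-added libraries lay above both willow libraries, and in 33.9% below, so such an order is given here as a description of a gene and not as support for its change. A gene that did not pass is not shown to have kept its level. Scaling to total counts alone moved the median over all tested genes by 0.30 and turned the split of calls to 1489 higher and 997 lower. In a limma test of the deposited RPKM values, reads scaled to gene length and library, the split was 881 and 515. That test has limits of its own. The authors scaled RPKM to all reads, also those outside genes. Adding 1 to each value before the log also shrinks changes of genes with low RPKM. Calls lost in it are given as differences between fits. In RNA from whole cultures, fewer cells of a kind and less RNA per cell cannot be told apart.

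**Figure D1:**
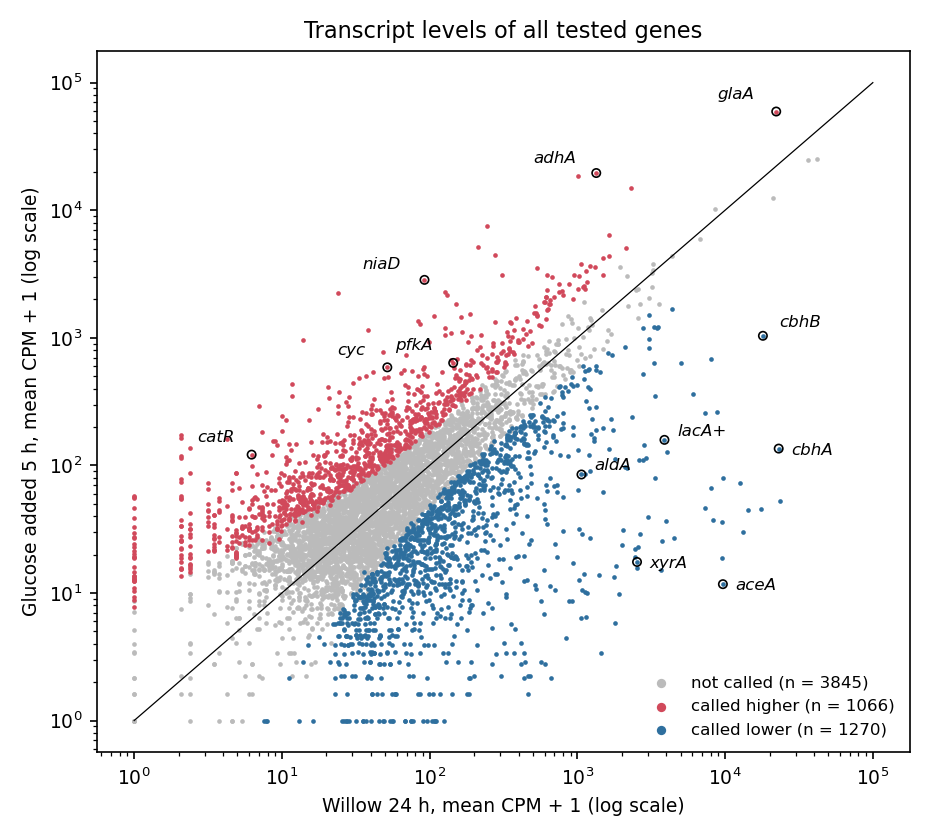
Mean CPM + 1 of each of the 6181 tested genes on willow (x, log scale) and 5 h after glucose addition (y, log scale), n = 2 libraries per mean, with genes called higher or lower in colour and the line of equal levels. The 1270 genes called lower reach farther from the line than the 1066 called higher, and cbhB lies nearer to it than cbhA.

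The shares of reads show the size of this exchange. The 5 lists for cellulose, lytic polysaccharide monooxygenases, xylan, mannan with xyloglucan and galactose, and pectin hold 59 genes. Together they took 15.3% of gene reads in willow A (95% Wilson interval 15.2% to 15.4%) and 15.0% in willow B (14.9% to 15.1%). After glucose the same genes took 0.400% in A (0.386% to 0.415%) and 0.349% in B (0.332% to 0.367%). In the glucose 48 h libraries they took 0.121% and 0.153%, so that both glucose-added libraries still lay above both of these. Taken list by list, this held for cellulose and for mannan with xyloglucan and galactose. For lytic polysaccharide monooxygenases, xylan and pectin the shares after glucose addition and on glucose 48 h overlapped. The list for starch, sucrose and inulin went the other way, from 2.10% and 2.12% of gene reads to 8.87% and 6.56%. Fermentation, gluconeogenesis and glyoxylate cycle genes went from 0.337% and 0.274% to 3.14% and 2.88%. The amino acid and nitrogen list went from 0.169% and 0.0921% to 2.36% and 2.17%, and glycolysis from 0.229% and 0.214% to 0.588% and 0.542%. In each of these 4 lists both libraries after glucose were above both on willow. Such sums can rest on few genes. After glucose glaA alone took 6.95% and 5.16% of gene reads, most of the starch list. An08g05640 held 14912 of the 18334 reads of the amino acid and nitrogen list in A and 8128 of 9486 in B. Members of a list did not all rise, as given for each list below. Shares were not tested, since with 2 libraries against 2 an exact two-sided permutation test cannot give a p below 0.333.

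**Figure D2:**
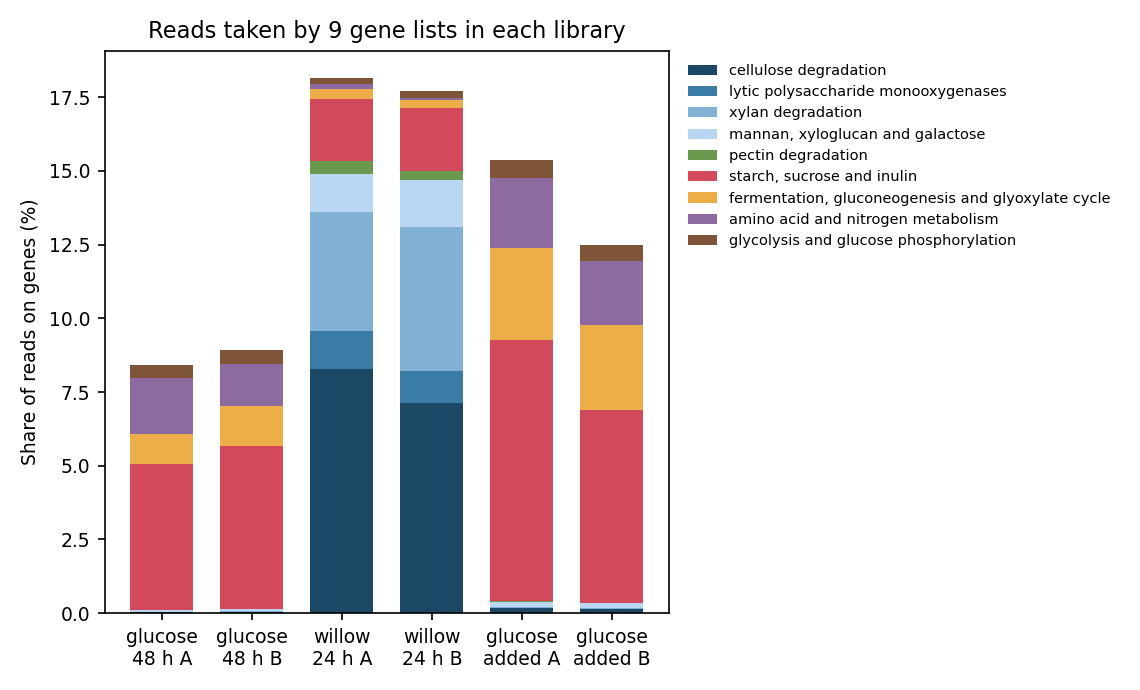
Share of gene reads (%, y) taken by 9 gene lists, stacked, in each of the 6 libraries (x). The wall degradation lists fill 15.3% and 15.0% in the willow libraries and 0.400% and 0.349% after glucose addition, where starch, sucrose and inulin genes take 8.87% and 6.56%.

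The number of genes that shared the reads also differed. In willow A and B, 141 and 156 genes held 50% of the gene reads, and after glucose 219 and 175 did. The gene with most reads after glucose was the glucoamylase gene glaA, with 6.95% and 5.16% of gene reads. On willow it was gw1.1194.1.1, a gene model without a second identifier, in A (2.97%) and An16g04600 in B (4.12%).

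Cellulose is cut at chain ends by cellobiohydrolases and inside the chain by endoglucanases, and beta-glucosidase splits the resulting cellobiose to glucose. All of the 8 listed genes were tested, 7 fell and no member rose, and the median log2 fold change was -7.21. The cellobiohydrolase gene cbhA had 19162 and 26955 CPM on willow and 44.5 and 224 CPM after glucose, a log2 fold change of -7.47 ± 0.70 (± SE, edgeR adjusted p = 1.2e-08). The other cellobiohydrolase gene, cbhB, had 24489.7 and 11568 CPM on willow and 1323 and 749 CPM after glucose, a change of -4.12 ± 0.52 (adjusted p = 1.3e-06). Both genes were far lower in both glucose-added libraries, but cbhB kept 5.75% of its willow mean and cbhA 0.583%. Against the glucose 48 h libraries, cbhB, at 28.8 and 14.5 CPM there, was still higher after glucose addition, with a log2 difference of 5.58 (adjusted p = 2.8e-07), a comparison in which 18.9% of all tested genes passed the test. For cbhA, at 49.4 and 84.6 CPM on glucose 48 h, that difference was 0.95 (adjusted p = 0.291) and did not pass.

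Among the endoglucanase genes, eglB (An07g08950) had 18999 and 15841 CPM on willow and 25.9 and 62.4 CPM after glucose, 0.254% of its willow mean. Its log2 fold change was -8.69 ± 0.62 (edgeR adjusted p = 1.8e-10). The second one, eglA, had 7387 and 8732 CPM and then 59.3 and 71.7 CPM, a change of -6.95 ± 0.50 (adjusted p = 1.8e-10). The beta-glucosidase gene bgl1 went from 9307 and 8225 CPM to 212 and 305 CPM, a change of -5.09 ± 0.45 (adjusted p = 4.8e-09). In all 3 genes every glucose-added library was below every willow library, as in 33.9% of all tested genes, and bgl1 kept the most, at 2.95% of its willow mean. Both eglA, with a log2 difference of 2.46 (adjusted p = 0.00126), and bgl1, with 2.002 (adjusted p = 0.00126), were still above glucose 48 h, where eglB, with 1.21 (adjusted p = 0.162), did not pass. The listed genes without a symbol, An12g02220 and An08g01760, fell, with log2 fold changes of -8.87 ± 0.63 and -7.47 ± 0.50 (adjusted p = 1.8e-10 and 1.7e-10). An16g06800, also without a symbol, had 71.8 and 38.7 CPM on willow and 44.5 and 41.6 CPM after glucose, and did not pass (adjusted p = 0.574).

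The list of lytic polysaccharide monooxygenases, enzymes that break cellulose chains by oxidation, holds 7 identifiers of which none has a symbol in the reference table, so they stand here by identifier alone. Of the 7, 3 were tested and 2 fell. An12g04610 had 15673 and 12841 CPM on willow and 53.1 and 34.7 CPM after glucose, a log2 fold change of -8.30 ± 0.57 (edgeR adjusted p = 1.8e-10). An14g02670 had only 37.0 and 24.9 CPM on willow and 3.71 and 4.62 CPM after glucose, a change of -2.88 ± 0.79 (adjusted p = 0.0061), and was not called without willow A (adjusted p = 0.0908) or without glucose-added A (0.0971). Nearly all reads of the list on willow therefore came from An12g04610, which kept 0.308% of its willow mean.

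Xylan has a backbone of xylose cut by xylanases and beta-xylosidase, and side groups taken off by accessory enzymes. Of 12 listed genes 10 were tested, and all 10 fell, at a median log2 fold change of -7.72. For the backbone, the xylanase gene xynB had 7361 and 11629 CPM on willow and 17.3 and 18.5 CPM after glucose, a log2 fold change of -9.04 ± 0.64 (edgeR adjusted p = 1.8e-10). The second xylanase gene, xynA, had 6124 and 10492 CPM and then 19.8 and 53.2 CPM, a change of -7.91 ± 0.60 (adjusted p = 3.3e-10). The beta-xylosidase gene xlnD went from 1622 and 2416 CPM to 24.7 and 20.8 CPM, a change of -6.44 ± 0.47 (adjusted p = 2.2e-10). In all 3 both glucose-added libraries were below both willow libraries, with 0.188% (xynB), 0.439% (xynA) and 1.13% (xlnD) of the willow mean left. None of them passed the test against glucose 48 h, with adjusted p of 0.737 for xynB, 0.196 for xynA and 0.0766 for xlnD.

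The genes for side groups fell as well. The acetyl xylan esterase gene aceA had 13983 and 5341 CPM on willow and 9.88 and 11.6 CPM after glucose, a log2 fold change of -9.81 ± 0.69 (edgeR adjusted p = 1.8e-10), which left 0.111% of its willow mean. The arabinofuranohydrolase gene axhA, for removal of arabinose from arabinoxylan, had 7561 and 11593 CPM and then 18.5 and 50.9 CPM, a change of -8.19 ± 0.59 (adjusted p = 1.8e-10). The alpha-glucuronidase gene aguA went from 9784 and 15282 CPM to 51.9 and 92.5 CPM, a change of -7.47 ± 0.57 (adjusted p = 3.6e-10). In each gene both glucose-added libraries were below both willow libraries, although aceA differed between the willow cultures more than axhA or aguA did. For the feruloyl esterase gene faeA, whose enzyme frees ferulic acid from xylan and pectin, 888 and 780.4 CPM on willow stood against 0 and 6.94 CPM after glucose. Only 3 reads of faeA remained in both libraries together, so that it was 348-fold lower, with an exact 95% counting interval of 119 to 1690. The arabinofuranosidase gene abfB kept more, at 263 and 329 CPM and then 11.1 and 34.7 CPM, a change of -3.82 ± 0.47 (adjusted p = 8e-07), and abfA, at 15.2 and 13.8 CPM and then 2.47 and 4.62 CPM, was too low to be tested. Of the genes without a symbol, An15g04550 fell, with a change of -7.52 ± 0.49 (adjusted p = 1.3e-10). An12g10390 fell, with a change of -2.03 ± 0.64 (adjusted p = 0.0153), but not without willow B (adjusted p = 0.112) or glucose-added A (0.194).

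**Figure D3:**
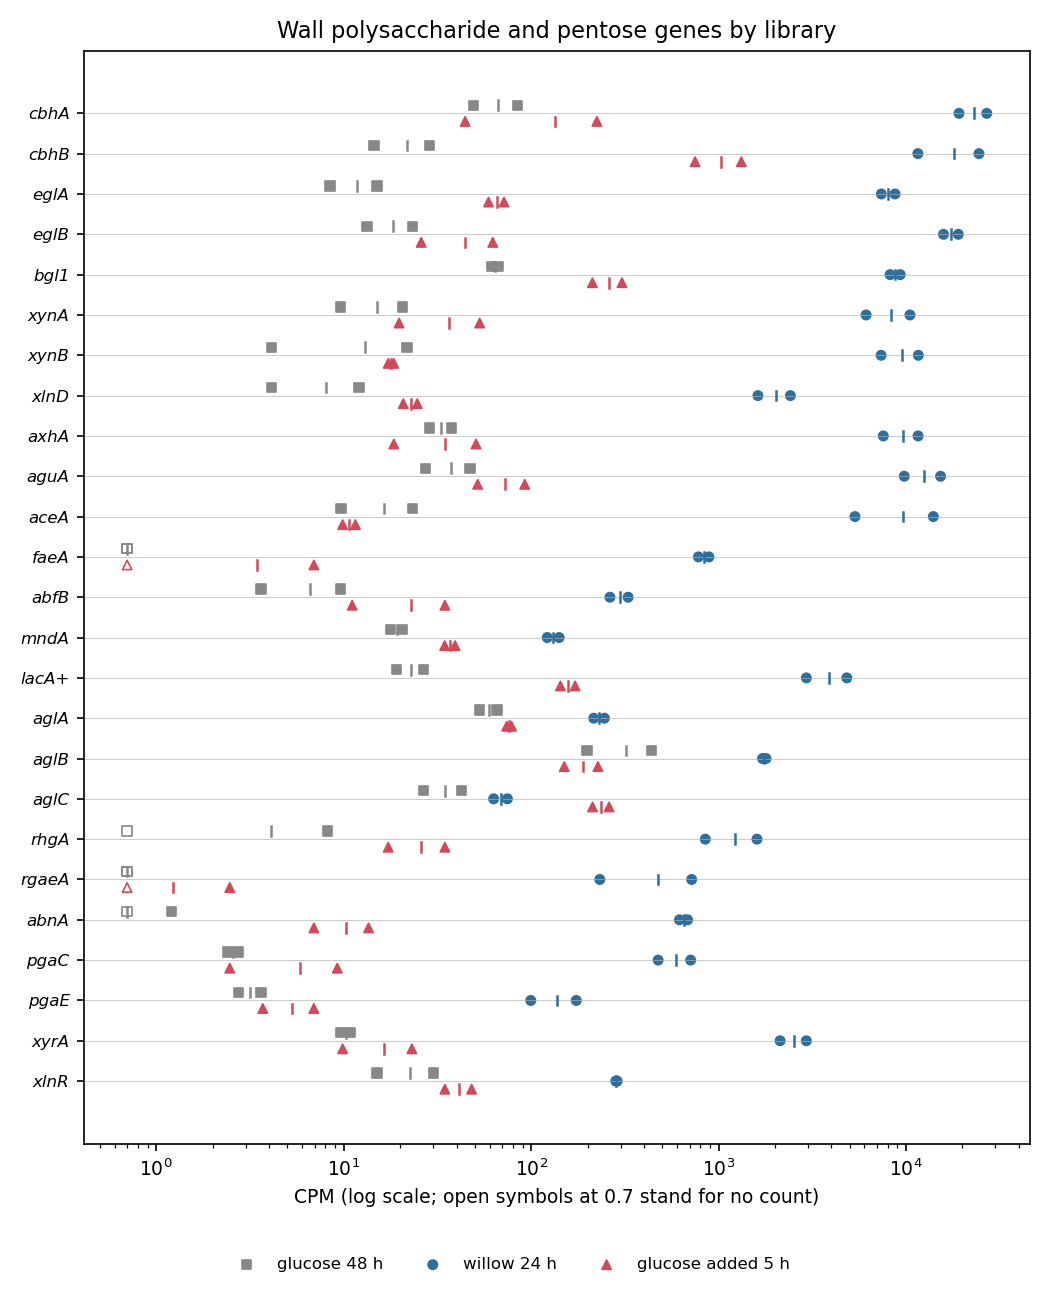
CPM (x, log scale) of genes for cellulose, xylan, mannan, galactose, pectin and xylose use and of xlnR (y) in every library, with 2 points per condition and a tick at their mean. The willow points lie to the right of the glucose-added points in all genes shown except aglC, and the glucose-added points of cbhB lie farthest from the glucose 48 h points among the cellulose genes, by a log2 difference of 5.58.

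Mannan, xyloglucan and galactose side chains are opened by mannosidases and galactosidases, and this list was the only one of the 5 for wall polysaccharides in which some genes rose. All 10 listed genes were tested, 8 fell and 2 rose, and the list's median log2 fold change was -3.37. The beta-galactosidase gene lacA+ had 2939 and 4832 CPM on willow and 172 and 143 CPM after glucose, a log2 fold change of -4.62 ± 0.42 (edgeR adjusted p = 7.9e-09), and stayed above glucose 48 h by 2.77 (adjusted p = 6.5e-05). The 3 alpha-galactosidase genes did not move together. The gene aglB fell from 1789.5 and 1716 CPM to 227 and 150.3 CPM, a log2 fold change of -3.20 ± 0.41 (adjusted p = 1.2e-06). From 246 and 216 CPM, aglA fell to 74.1 and 78.6 CPM, a change of -1.60 ± 0.35 (adjusted p = 0.00089), and aglC rose from 63.1 and 74.7 CPM to 261 and 213 CPM, by 1.79 ± 0.37 (adjusted p = 0.00055). The groups of each of the 3 did not overlap, which held for 33.9% of all tested genes in the lower and 34.5% in the higher direction. After glucose, aglC also exceeded glucose 48 h, at 42.5 and 26.6 CPM, by 2.78 (adjusted p = 8.1e-06). The beta-mannosidase gene mndA fell from 122 and 141 CPM to 34.6 and 39.3 CPM, a change of -1.84 ± 0.42 (adjusted p = 0.00139). With limma on the RPKM values neither aglA (adjusted p = 0.255) nor mndA (0.203) was called. Their changes in that fit, with 1 added to each RPKM, were -0.60 and -0.43.

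The members without a symbol spread over the same range. An06g00290, An05g01320 and An14g05820 fell, with log2 fold changes of -6.98 ± 0.49, -6.28 ± 0.50 and -5.47 ± 0.50, with edgeR adjusted p of 1.8e-10, 8e-10 and 8.5e-09. An01g01870 fell from 6759.7 and 9271 CPM to 754.5 and 615 CPM, a change of -3.55 (adjusted p = 5.5e-07). An09g03070 rose from 74.0 and 77.5 CPM to 179 and 196.5 CPM, a change of 1.31 (adjusted p = 0.00527). The last 2 were picked as examples with their values in view.

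Pectin needs enzymes for its smooth galacturonan chain and for its branched rhamnogalacturonan regions. Of 22 listed genes 13 had enough counts to be tested, 11 fell and no member rose, and the median log2 fold change was -4.75. For the branched regions, the rhamnogalacturonan hydrolase gene rhgA had 1602 and 849.6 CPM on willow and 17.3 and 34.7 CPM after glucose, a log2 fold change of -5.63 ± 0.53 (edgeR adjusted p = 1.4e-08). The endo-arabinanase gene abnA had 618 and 684 CPM and then 13.6 and 6.94 CPM, a change of -5.86 ± 0.45 (adjusted p = 4.3e-10). Both genes were lower in each glucose-added library than in each willow library. They were still above glucose 48 h, where rhgA had 8.23 and 0 CPM (adjusted p = 0.0179) and abnA 0 and 1.21 CPM (adjusted p = 0.00615). The rhamnogalacturonan acetylesterase gene rgaeA went from 718 and 232 CPM to 2.47 and 0 CPM, with 2 reads left in both libraries together, 313-fold lower with an exact 95% counting interval of 86.2 to 2600. The second rhamnogalacturonan hydrolase gene, rhgB, had 32.7 and 47.0 CPM and 21.0 and 6.94 CPM and did not pass (adjusted p = 0.0726).

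For the smooth chain, the polygalacturonase gene pgaC had 709.7 and 476 CPM on willow and 2.47 and 9.25 CPM after glucose, a log2 fold change of -6.84 ± 0.52 (edgeR adjusted p = 3.6e-10). Another, pgaE, had 174 and 99.6 CPM and then 3.71 and 6.94 CPM, a change of -4.75 ± 0.60 (adjusted p = 1.2e-06). In both genes the groups lay far apart relative to the distance between replicates. The polygalacturonase gene pgaI fell from 58.8 and 49.8 CPM to 1.24 and 0 CPM, 1 read in all, 68.1-fold lower with a counting interval of 11.6 to 2750. The related gene pgaII fell from 74.0 and 22.1 CPM to 7.41 and 4.62 CPM, a change of -2.92 ± 0.77 (adjusted p = 0.00469), but not without willow A (adjusted p = 0.337). The gene pgaB, with 13.1 and 11.1 CPM on willow and 4.94 and 11.6 CPM after glucose, did not pass (adjusted p = 0.552). The polygalacturonase genes pgaA and pgaD, the pectin lyase genes pelA, pelB and pelD, the pectate lyase gene plyA and the pectin methylesterase gene pmeA had too few counts to be tested, with at most 19.6 CPM in any willow library. Of these, pmeA had 13.1 and 8.30 CPM on willow and no count after glucose, at least 4.54-fold lower, and pelA had 19.6 and 13.8 CPM and then 3.71 and 0 CPM. Among genes without a symbol, An14g01130, An12g07500 and An03g06740 fell, with changes of -6.93 ± 0.49, -3.99 ± 0.52 and -3.64 ± 0.71 (adjusted p = 1.8e-10, 2e-06 and 0.00036), the last with an adjusted p of 0.0935 in DESeq2.

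Sugars freed from xylan and pectin are taken up and reduced before they enter central metabolism. Of 8 listed genes for pentose and galacturonate catabolism 6 were tested and all 6 fell, at a median log2 fold change of -4.08. The D-xylose reductase gene xyrA, for the first step of xylose use, had 2129 and 2939 CPM on willow and 9.88 and 23.1 CPM after glucose, a change of -7.36 ± 0.50 (edgeR adjusted p = 1.7e-10). It had 9.60 and 10.9 CPM on glucose 48 h and did not pass the test against it (adjusted p = 0.586). Among the identifiers without a symbol, An12g00030 fell from 2244 and 3595 CPM to 79.0 and 146 CPM, a change of -4.72 ± 0.43 (adjusted p = 8.5e-09). An02g07710 was left with 2 reads, 28.8-fold lower with a counting interval of 7.43 to 246, and An01g10920 fell, with a change of -3.52 ± 0.55 (adjusted p = 2.5e-05). The 3 listed sugar transporter identifiers, also without symbols, all fell. An12g07450 went from 3381 and 3216 CPM to 764 and 495 CPM, a change of -2.38 ± 0.41 (adjusted p = 6.8e-05), and remained above glucose 48 h by 1.79 (adjusted p = 0.00268). An03g01620 fell, with a change of -3.63 ± 0.62 (adjusted p = 6.4e-05). An14g04280 fell, with a change of -2.20 ± 0.67 (adjusted p = 0.0125), but its adjusted p was 0.0735 without willow B, 0.0773 without glucose-added A and 0.0641 without glucose-added B.

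How much transcript was left after 5 h differed widely among the 38 wall list genes that fell. It ranged from 0.111% of the willow mean for aceA to 33.1% for aglA, and 17 of the 38 kept less than 1% while 12 kept more than 5%. With the deposited RPKM values, which allow levels of different genes to be compared, aceA had a mean of 173 on willow, cbhA 157 and cbhB 123, and after glucose 0.263, 1.13 and 11.2. In group means, the order of these 3 genes per length was therefore opposite in the 2 conditions. On willow aceA and cbhB were higher in culture A and cbhA was higher in B. The willow order of means therefore need not hold in each library. These RPKM values were scaled by the authors to all reads of a library, also those outside genes. RPKM levels of genes are therefore compared within a condition only. The limma fit does compare RPKM between conditions, with that limit.

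**Figure D4:**
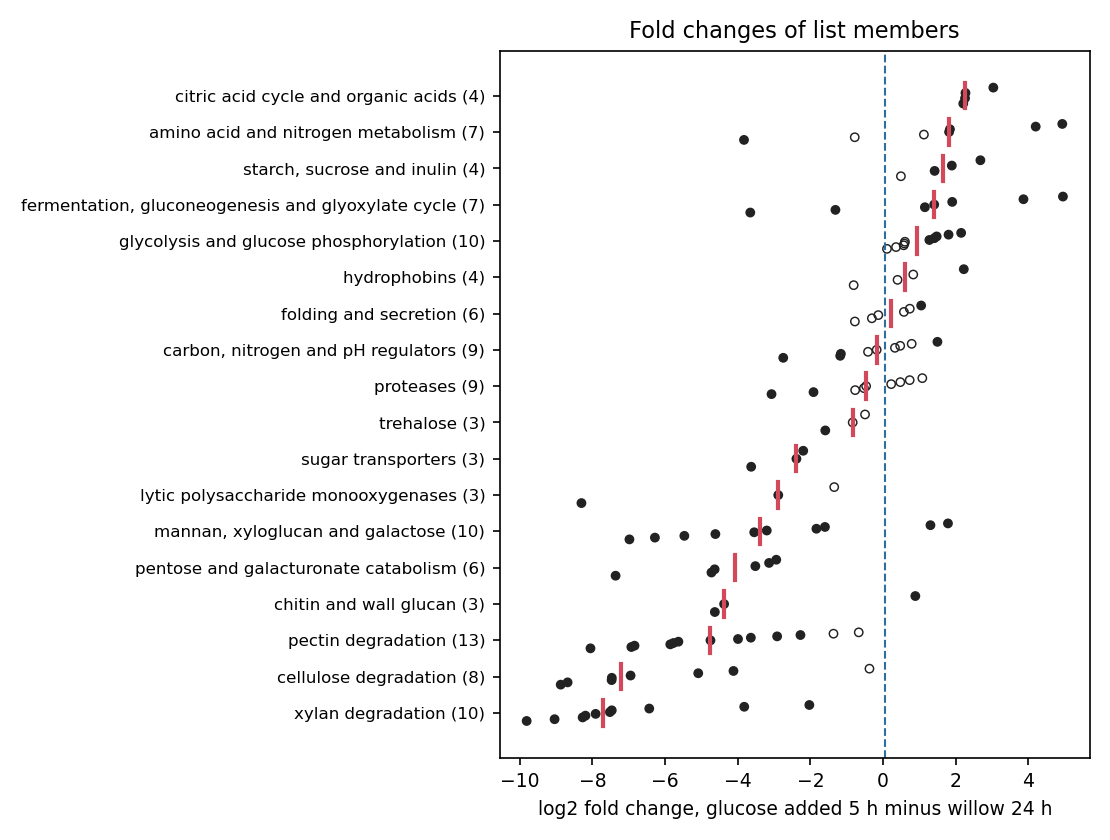
Log2 fold change after glucose addition (x) of each tested member of the gene lists with at least 3 tested genes, except the siderophore locus (y, number tested in parentheses), filled where the adjusted p was under 0.05, with the list's median (bar) and the median of all tested genes (dashed line, 0.04). Medians run from -7.72 for xylan degradation to 2.26 for the citric acid cycle and organic acids.

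Genes for regulators of carbon, nitrogen and pH responses had a median change near that of all tested genes. Of 11 listed, 9 were tested, 3 fell and 1 rose, where 20.5% of all tested genes fell and 17.2% rose. The list's median log2 fold change was -0.18. The xylanase activator gene xlnR had 283 and 288 CPM on willow and 48.2 and 34.7 CPM after glucose, a change of -2.75 ± 0.39 (edgeR adjusted p = 6e-06), with 15.1 and 30.2 CPM on glucose 48 h. The repressor gene creA had 91.4 and 94.1 CPM and then 45.7 and 34.7 CPM, a change of -1.18 ± 0.43 (adjusted p = 0.0348). For both genes each glucose-added library was below each willow library. The call of creA was lost when any 1 of the 4 libraries was left out, with adjusted p of 0.0843 and 0.0851 without willow A and B and 0.0936 and 0.168 without glucose-added A and B. The starch activator gene amyR had 30.5 and 13.8 CPM on willow and 97.6 and 25.4 CPM after glucose, so that its groups overlapped. It rose by 1.50 ± 0.57 (adjusted p = 0.0422), but with an adjusted p of 0.867 without glucose-added A and 0.151 without willow B. The gene cpcA (An01g07900), for the activator of amino acid synthesis, fell from 350.5 and 470.5 CPM to 152 and 217 CPM, a change of -1.16 ± 0.34 (adjusted p = 0.00916), and was not called without willow B (adjusted p = 0.0719) or glucose-added A (0.18).

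Among the listed genes without a symbol, An04g08600 and An15g00300 did not pass (edgeR adjusted p = 0.48 and 0.273). For 3 further regulators with a symbol the test was not passed either. The acetate regulator gene facB had 124 and 122 CPM on willow and 170.4 and 136 CPM after glucose (edgeR adjusted p = 0.479). The pH regulator gene pacC had 63.1 and 55.4 CPM and 40.8 and 67.1 CPM (adjusted p = 0.791), and the protease activator gene PrtT 337 and 313 CPM and 235 and 254 CPM (adjusted p = 0.344). In none of the 3 did the means differ by as large a ratio as in the 4 genes above. The nitrogen regulator gene areA and a second entry named cpcA (An01g07890) are listed at 0 in all 6 libraries.

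Of 8 genes listed for starch, sucrose and inulin 4 were tested, 3 rose and no member fell, and the median log2 fold change was 1.66. Only 1 of them was called without willow A or without glucose-added A. The glucoamylase gene glaA, whose enzyme releases glucose from starch, had 21921 and 22453 CPM on willow and 66552 and 52219 CPM after glucose, a change of 1.42 ± 0.52 (edgeR adjusted p = 0.0353). The alpha-glucosidase gene aglU had 2429.6 and 2217 CPM and then 16774 and 13016 CPM, a change of 2.68 ± 0.45 (adjusted p = 6e-05). The replicates of each condition were close and the groups lay apart, but glaA had an adjusted p of 0.0924 without willow A, 0.0695 without willow B and 0.0991 without glucose-added A. Neither passed the test against glucose 48 h, with adjusted p of 0.462 for glaA and 0.12 for aglU. The exo-inulinase gene inu1 rose from 6.53 and 13.8 CPM to 43.2 and 30.1 CPM, by 1.89 ± 0.73 (adjusted p = 0.0431), with an adjusted p of 0.256 without willow A, 0.349 without glucose-added A and 0.0785 without glucose-added B. It had 0 and 1.21 CPM on glucose 48 h, and was above that level after glucose addition (adjusted p = 0.00023). The fourth tested gene, An01g10930, with 1088.5 and 755.5 CPM on willow and 1552 and 1040.5 CPM after glucose, did not pass (adjusted p = 0.282). The invertase gene suc1 and the inulinase gene inuA had too few counts to be tested, and the alpha-amylase gene amyA is listed at 0 in every library.

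Glycolysis splits glucose to pyruvate. All 10 listed genes were tested, 5 rose and no member fell, and the median log2 fold change was 0.94. The phosphofructokinase gene pfkA, for the committed step, had 126 and 160.5 CPM on willow and 671 and 599 CPM after glucose, a change of 2.15 ± 0.37 (edgeR adjusted p = 7.2e-05). The gene gpdA, which encodes glyceraldehyde-3-phosphate dehydrogenase, had 339.6 and 385 CPM and then 877 and 1140.0 CPM, a change of 1.48 ± 0.37 (adjusted p = 0.0029). The pyruvate kinase gene pkiA, for the last step, went from 250.4 and 208 CPM to 634 and 587 CPM, a change of 1.41 ± 0.33 (adjusted p = 0.00166). Each of these 3 was higher in both glucose-added cultures than in both willow cultures. Only pfkA among them differed from glucose 48 h, where it had 79.5 and 163 CPM, by 2.38 (adjusted p = 4.1e-05). The first enzymes of the pathway did not pass. The hexokinase gene hxk had 71.8 and 33.2 CPM on willow and 87.7 and 74.0 CPM after glucose (adjusted p = 0.303), and the glucokinase gene GlkA 128 and 213 CPM and 188 and 249.7 CPM (adjusted p = 0.442). The triose phosphate isomerase gene tpiA, with 292 and 277 CPM and 463 and 391 CPM, did not pass either (adjusted p = 0.163). Without a symbol, An08g02260 and An18g06250 rose by 1.80 ± 0.35 and 1.28 ± 0.33 (adjusted p = 0.00025 and 0.0041).

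Of the 7 genes listed for fermentation, gluconeogenesis and the glyoxylate cycle all were tested, 5 rose and 2 fell, and the list's median log2 fold change was 1.41. The alcohol dehydrogenase gene adhA had 1424 and 1259 CPM on willow and 19626 and 19516 CPM after glucose, a change of 3.87 ± 0.47 (edgeR adjusted p = 7.8e-07). It was then also above glucose 48 h, at 6022 and 6250.0 CPM, by 1.67 (adjusted p = 0.00767). The aldehyde dehydrogenase gene aldA, whose enzyme oxidises acetaldehyde to acetate, went the other way, from 1422 and 708 CPM to 91.4 and 76.3 CPM, a change of -3.66 ± 0.40 (adjusted p = 1.4e-07). It ended below glucose 48 h, at 195 and 255 CPM, a log2 difference of -1.41 (adjusted p = 0.0105). The replicates of adhA after glucose differed by less than those on willow. Among members without a symbol, An02g06820 rose from 242 and 244 CPM to 7647 and 7395 CPM, by 4.95 ± 0.49 (adjusted p = 2.9e-08), and An01g09270 by 1.90 ± 0.38 (adjusted p = 0.00035). An15g01860 rose by 1.41 ± 0.53 (adjusted p = 0.0407), but not without willow A (adjusted p = 0.139) or glucose-added A (0.253). The other gene that fell, An11g02550, had 202.5 and 393 CPM on willow and 112 and 127 CPM after glucose, a change of -1.31 (adjusted p = 0.00642).

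In the list for the citric acid cycle and organic acids all 4 genes rose, at a median log2 fold change of 2.26. The citrate synthase gene citA had 102 and 72.0 CPM on willow and 506 and 331 CPM after glucose, a change of 2.26 ± 0.39 (edgeR adjusted p = 6.6e-05). The isocitrate dehydrogenase gene icdA had 78.4 and 77.5 CPM and then 379 and 342 CPM, a change of 2.21 ± 0.35 (adjusted p = 2.6e-05). The pyruvate carboxylase gene pyc, which refills the cycle with oxaloacetate, went from 194 and 357 CPM to 1274 and 1371 CPM, a change of 2.27 ± 0.37 (adjusted p = 3.5e-05). The 3 changes were of nearly the same size, and the groups of each gene did not overlap. Against glucose 48 h none of them passed, with adjusted p of 0.479 for citA, 0.557 for icdA and 0.119 for pyc. An10g00820, listed by identifier alone, rose by 3.04 ± 0.39 (adjusted p = 1.3e-06).

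The genes cyc, cox5 and aox1 of the respiratory chain rose too. The cytochrome c gene cyc, for the electron carrier between the respiratory complexes, had 23.9 and 77.5 CPM on willow and 443 and 728 CPM after glucose, a change of 3.56 ± 0.46 (edgeR adjusted p = 1.4e-06). The cytochrome c oxidase subunit gene cox5 had 30.5 and 27.7 CPM and then 243 and 236 CPM, a change of 3.03 ± 0.39 (adjusted p = 1.7e-06). The alternative oxidase gene aox1, whose enzyme passes electrons to oxygen without cytochrome c, went from 468 and 1029.5 CPM to 2264 and 2333 CPM, a change of 1.62 ± 0.41 (adjusted p = 0.00329), with an adjusted p of 0.0654 without willow A. All 3 were higher in both glucose-added cultures. On glucose 48 h cyc had 17.8 and 32.6 CPM, and its level after glucose addition exceeded that by 4.51 (adjusted p = 1.6e-07), while cox5, at 98.7 and 115 CPM there, did so by 1.16 (adjusted p = 0.0134). The names cyc and cox5 were picked from all genes with a symbol because they passed the test, so they say nothing of the chain as a whole.

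The list for nitrogen and amino acid metabolism has 10 genes, of which 7 were tested. Of these 4 rose and 1 fell, where 17.2% of all tested genes rose and 20.5% fell. The list's median log2 fold change was 1.82. The nitrate reductase gene niaD, for the first step of nitrate use, had 133 and 49.8 CPM on willow and 3249 and 2439.5 CPM after glucose, a change of 4.94 ± 0.48 (edgeR adjusted p = 2.2e-08). An08g05640, which has no symbol, had 1369 and 648 CPM and then 18415 and 18794 CPM, a change of 4.20 ± 0.52 (adjusted p = 9.8e-07). The glutamate dehydrogenase gene gdhA, whose enzyme fixes ammonium, went from 266 and 83.0 CPM to 727 and 516 CPM, a change of 1.82 ± 0.43 (adjusted p = 0.0017). In all 3 the glucose-added cultures were above the willow cultures, between which niaD and gdhA differed by a larger ratio than between the glucose-added ones. At 1707 and 1088 CPM and 13128 and 9932 CPM on glucose 48 h, niaD and An08g05640 did not pass the test against that level (adjusted p = 0.0744 and 0.336), whereas gdhA, at 1263 and 1709 CPM there, was still below it, with a log2 difference of -1.25 (adjusted p = 0.0303).

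The 2 isopropylmalate dehydrogenase genes of leucine synthesis moved in opposite directions. Transcripts of leu2A rose from 32.7 and 19.4 CPM to 116 and 71.7 CPM, by 1.84 ± 0.45 (edgeR adjusted p = 0.00244), with an adjusted p of 0.052 without glucose-added A. Those of leu2B fell from 128 and 199 CPM to 11.1 and 11.6 CPM, a change of -3.83 ± 0.49 (adjusted p = 1.5e-06). Per gene length, in deposited RPKM, leu2B (mean 1.87) exceeded leu2A (0.346) on willow, and leu2A (1.99) exceeded leu2B (0.209) after glucose. The gene argA, with 91.4 and 69.2 CPM on willow and 34.6 and 62.4 CPM after glucose, did not pass (adjusted p = 0.187), nor did pyrA, with 26.1 and 33.2 CPM and 87.7 and 37.0 CPM (adjusted p = 0.0955). The genes argB and trpC are listed at 0 in all libraries.

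**Figure D5:**
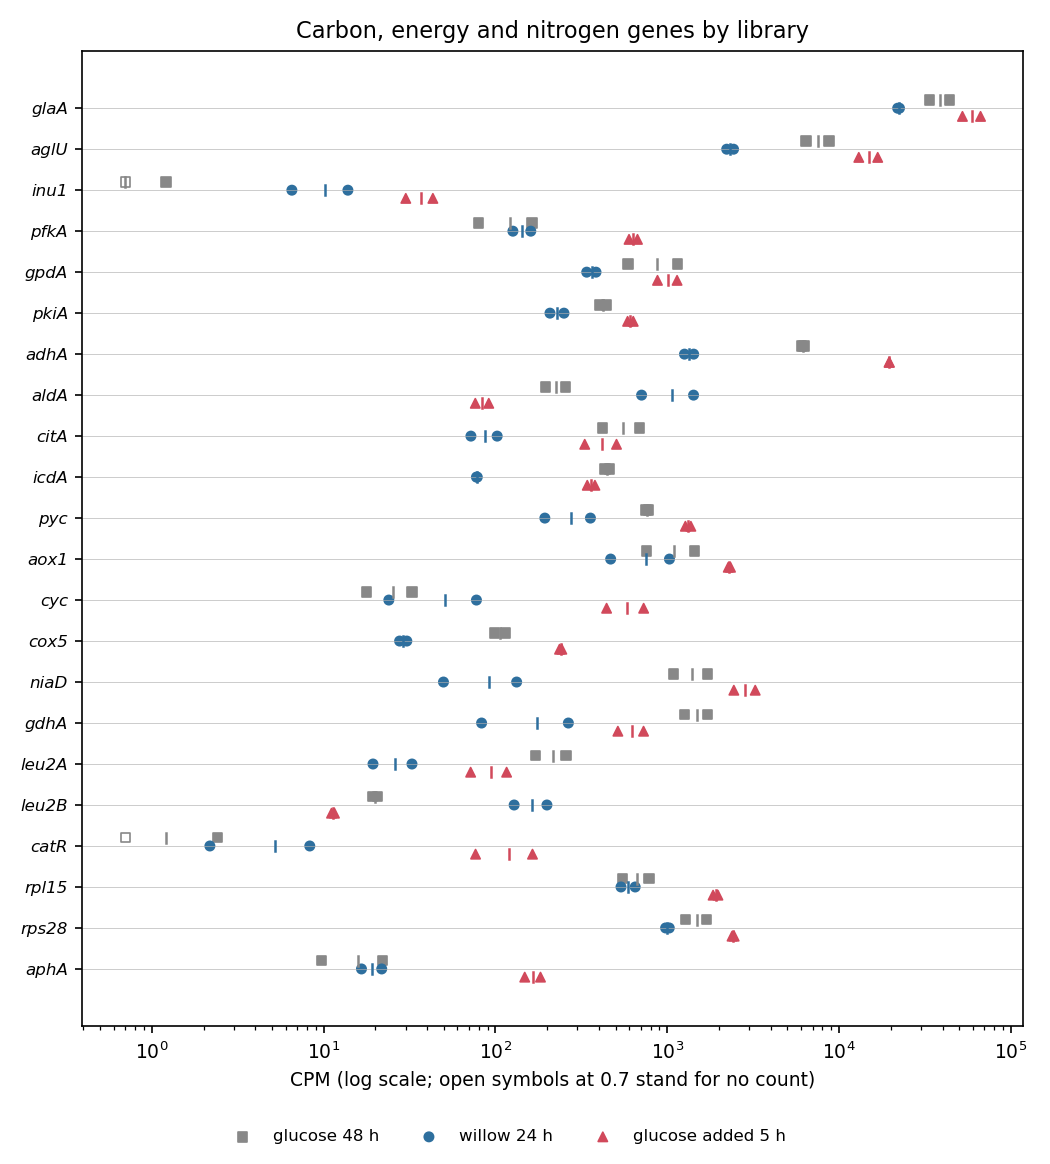
CPM (x, log scale) of genes for starch, glycolysis, fermentation, the citric acid cycle, respiration, nitrogen and other functions (y) in every library, with 2 points per condition and a tick at their mean. All genes shown except aldA and leu2B have both glucose-added points to the right of both willow points, and catR, cyc, aphA and pfkA, among others, also lie to the right of the glucose 48 h points.

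Of the 2 genes listed for translation 1 rose, rps28, where 17.2% of all tested genes rose. The other, An18g04840, with 185 and 177 CPM on willow and 257 and 236 CPM after glucose, did not pass (edgeR adjusted p = 0.295). The ribosomal protein gene rps28 had 978 and 1027 CPM on willow and 2450.1 and 2382 CPM after glucose, a change of 1.27 ± 0.36 (edgeR adjusted p = 0.00703), with an adjusted p of 0.0501 without willow A. The ribosomal protein gene rpl15, picked from outside the lists because it passed, had 538 and 650.4 CPM and then 1971 and 1848 CPM, a change of 1.69 ± 0.35 (adjusted p = 0.00062). For both genes the glucose-added libraries lay above the willow libraries, and rpl15 was also above glucose 48 h by 1.52 (adjusted p = 0.00281). In the folding and secretion list of 9 genes 6 were tested, 1 rose and none fell, with a median of 0.22, where 17.2% of all tested genes rose. That gene was srgD, a small GTPase of the secretion pathway, which rose from 56.6 and 74.7 CPM to 107 and 166 CPM, by 1.05 ± 0.38 (adjusted p = 0.0344), but not without willow A (adjusted p = 0.203) or glucose-added B (0.236). The chaperone gene bipA, with 113 and 147 CPM and 185 and 201 CPM (adjusted p = 0.193), and the disulfide isomerase gene tigA, with 250.4 and 398 CPM and 436 and 645 CPM (adjusted p = 0.0951), did not pass in this scaling. With total-count scaling both were called higher, at adjusted p of 0.045 for bipA and 0.0201 for tigA. The GTPase genes srgA (adjusted p = 0.503) and sarA (adjusted p = 0.373) did not pass, prpA was too low to be tested, and pdiA and cypA are listed at 0 throughout.

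Among 10 protease genes 9 were tested, 2 fell and no member rose, a share of falls near the 20.5% over all tested genes, and the median log2 fold change was -0.47. The gene pepA, for the main secreted acid protease, had 1807 and 792 CPM on willow and 142 and 169 CPM after glucose, a change of -3.07 ± 0.40 (edgeR adjusted p = 1.9e-06). It stayed above glucose 48 h, at 9.60 and 16.9 CPM, by 3.51 (adjusted p = 1e-05). The aminopeptidase gene apsA went from 100.1 and 96.9 CPM to 24.7 and 27.8 CPM, a change of -1.91 ± 0.45 (adjusted p = 0.00178). The groups of these 2 genes did not overlap, but apsA was not called with limma on RPKM (adjusted p = 0.251). The secreted proctase-A gene, with 1776 and 3548 CPM and 1749.9 and 1947 CPM, did not pass (adjusted p = 0.292), and its groups overlapped. The vacuolar protease gene pepE had 1065 and 971 CPM and 763 and 428 CPM (adjusted p = 0.0955). The remaining genes dapB, papA, pepD, pepF and kexB had adjusted p between 0.0672 and 0.749, and pepC is listed at 0 throughout.

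Smaller lists for the state of the hyphae are made largely of identifiers without symbols, which stand here by identifier alone. Of 3 genes listed for chitin and wall glucan 2 fell. An02g07020 went from 2410.0 and 2839.5 CPM to 66.7 and 150.3 CPM, a change of -4.63 ± 0.43 (edgeR adjusted p = 1e-08), and An09g02240 from 424 and 141 CPM to 14.8 and 11.6 CPM, a change of -4.38 ± 0.54 (adjusted p = 8e-07). The third, An18g06820, rose by 0.89 ± 0.33 (adjusted p = 0.035), a call that was lost when any 1 of the 4 libraries was left out, with adjusted p of 0.225 and 0.0716 without willow A and B and 0.124 and 0.0981 without glucose-added A and B. Both autophagy identifiers fell: An07g10020 with a change of -1.46 ± 0.34 (adjusted p = 0.00179, and 0.0913 without glucose-added A) and An04g03950 with a change of -1.47 ± 0.36 (adjusted p = 0.0026). With limma on RPKM neither was called (adjusted p = 0.271 for An07g10020 and 0.426 for An04g03950). Of 4 hydrophobin identifiers 1 rose, where 17.2% of all tested genes rose. It was An03g02400, which went from 32.7 and 16.6 CPM to 133 and 102 CPM, a change of 2.22 ± 0.49 (adjusted p = 0.00096). In the trehalose list the trehalose-6-phosphate synthase gene tpsB fell from 562 and 650.4 CPM to 175 and 229 CPM, a change of -1.59 ± 0.34 (adjusted p = 0.0007, and 0.21 with limma on RPKM). Its relative tpsA, at 300.4 and 299 CPM and then 154 and 183 CPM, lay at the threshold, with an adjusted p of 0.0505. The 5 siderophore locus identifiers summed to 6.53 and 8.30 CPM on willow and 3.71 and 11.6 CPM after glucose, against 1439 and 1459 CPM on glucose 48 h. They had enough counts to be tested only through the glucose 48 h libraries. None of the 5 passed the test between willow and glucose added. With 3 and 3 reads in all on willow and 3 and 5 after glucose, that test could not show whether they changed. The tested conidiation gene, An09g05730, with 181 and 163 CPM on willow and 143 and 99.4 CPM after glucose, did not pass (adjusted p = 0.282), and the other 2 had at most 23.9 CPM in any library.

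Of all 129 genes with a symbol, 101 were tested, 23 rose and 38 fell. Outside the lists, 27 such genes were tested, 4 rose and 5 fell, shares near the 17.2% and 20.5% over all tested genes, and those that passed were named after their values were seen. The catalase gene catR, from the list with glucose oxidase, had 2.18 and 8.30 CPM on willow and 76.6 and 164 CPM after glucose, a change of 4.53 ± 0.72 (edgeR adjusted p = 2.6e-05). With 0 and 2.42 CPM on glucose 48 h, it stood above that level (adjusted p = 1.8e-06). Catalase breaks down hydrogen peroxide, and the glucose oxidase gene goxC, whose enzyme forms it, was at most 4.84 CPM in any library. The acid phosphatase gene aphA rose from 21.8 and 16.6 CPM to 183 and 148 CPM, by 3.09 ± 0.48 (adjusted p = 2.2e-05), and was above glucose 48 h, at 21.9 and 9.67 CPM, by 3.40 (adjusted p = 7.5e-06). For both catR and aphA the glucose-added libraries were above all other libraries. The dihydroxybenzoate decarboxylase gene dhbD fell from 146 and 194 CPM to 7.41 and 11.6 CPM, a change of -4.20 ± 0.51 (adjusted p = 7.2e-07), and hyl1 from 438 and 764 CPM to 32.1 and 41.6 CPM, a change of -4.04 ± 0.41 (adjusted p = 4.4e-08). The amine oxidase gene AO-I fell from 128 and 158 CPM to 17.3 and 18.5 CPM, a change of -2.99 ± 0.47 (adjusted p = 2.4e-05, and 0.0611 with limma on RPKM). Smaller falls were those of Balu-42, a change of -1.50 ± 0.36 (adjusted p = 0.00227, and 0.0692 without willow A), and furA, a change of -1.15 ± 0.35 (adjusted p = 0.0121, and 0.136 without glucose-added A).

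Several of the largest exchanges of reads involve genes known here by identifier only. Of the 12 largest losses in mean CPM, An09g00840 went from 34184 and 12619.8 CPM on willow to 35.8 and 67.1 CPM after glucose, a log2 fold change of -8.87 ± 0.72 (edgeR adjusted p = 1.1e-09). An01g11670 went from 12298 and 6924 CPM to 104 and 53.2 CPM, a change of -6.90 ± 0.58 (adjusted p = 2.2e-09), and stayed above glucose 48 h by 3.33 (adjusted p = 0.00048). Both had much lower levels in both glucose-added libraries, and the other 10 are wall list genes described above. Of the 12 largest gains, An15g02040 rose from 144 and 282 CPM to 4118 and 6104 CPM, by 4.59 ± 0.46 (adjusted p = 3.2e-08). An07g09920 rose from 2134 and 1159.6 CPM to 7594 and 5163 CPM, by 1.95 ± 0.42 (adjusted p = 0.00082), and An14g02460 from 174 and 379 CPM to 3988 and 4856 CPM, by 4.01 ± 0.43 (adjusted p = 1.3e-07). These 3 were also above glucose 48 h, by log2 differences of 1.88, 3.11 and 2.89 (adjusted p = 0.00145, 1.5e-05 and 1.5e-05). An18g04220 and An01g13060 rose by 2.74 ± 0.40 and 3.35 ± 0.45 (adjusted p = 9.8e-06 and 2.8e-06), and did not pass the test against glucose 48 h (adjusted p = 0.262 and 0.589). An02g05700 rose by 1.25 ± 0.40 (adjusted p = 0.0177), but not without willow A (adjusted p = 0.0859) or glucose-added A (0.194). Among the largest log2 increases, An16g07080 rose by 4.08 ± 0.43 (adjusted p = 9.2e-08) and the gene model Cscaffold2000578, without a second identifier, by 2.45 ± 0.36 (adjusted p = 9.3e-06).

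Some genes had reads in only 1 of the conditions. There were 22 genes with no count in either willow library and at least 20 counts over the glucose-added libraries, and 34 with the reverse. Among the first, An18g01580 had 66.7 and 46.2 CPM after glucose, at least 16.3-fold higher against the floor of 3 counts over both willow libraries, An05g01440 had 70.4 and 20.8 CPM, at least 14.5-fold higher, and An18g01640 had 35.8 and 39.3 CPM, at least 10.1-fold higher. An11g00820, with 45.7 and 62.4 CPM, and An15g07190, with 43.2 and 67.1 CPM, were each at least 14.1-fold higher and had at most 1.37 CPM in any glucose 48 h library, so that among the 5 genes named these 2 had reads almost only after glucose addition. Among the second, An11g08850 had 142 and 108 CPM on willow, at least 52.5-fold more than after glucose. An02g14720 had 152 and 66.4 CPM and An06g02120 135 and 80.3 CPM, at least 47.4-fold and 45.9-fold more. An02g00060, with 122 and 83.0 CPM, and An13g01880, with 82.7 and 130.1 CPM, were at least 43.4-fold and 42.9-fold lower after glucose. All 5 also had at most 2.74 CPM in any glucose 48 h library.

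Neighbouring genes, by the order of gene starts in the reference table, at times moved together. There were 15 runs of at least 4 adjacent genes that all passed in the same direction, 12 of them lower and 3 higher, where 20.5% of tested genes passed lower and 17.2% higher. Many of these runs rest on calls that other fits lose: of the 15, the whole run was called in 6 with DESeq2, in 1 with limma on RPKM, in 7 with total-count scaling, and in 3 to 13 when 1 library was left out. The run An07g08910 to An07g08960 held 6 genes that fell, among them eglB, of which 5 were called with DESeq2 and 4 without willow B or glucose-added A. Its last gene, An07g08960, had an adjusted p of 0.054 in DESeq2, 0.0706 without willow B and 0.305 without glucose-added A, and An07g08930 one of 0.0678 without glucose-added A. Beside eglB, An07g08940 went from a mean of 1761 CPM to 12.4 CPM, a log2 fold change of -7.22 (edgeR adjusted p = 2.5e-10). The run An06g02110 to An06g02150 held 5 genes that fell, with changes between -9.03 and -3.37, 2 of them with no count after glucose, so that these fitted values are no bounds, and 4 of the 5 were called with DESeq2. The longest run, An01g06810 to An01g06890, held 9 genes with changes between -3.92 and -0.88. It rests partly on calls near the threshold, since An01g06820 and An01g06880, for example, had adjusted p of 0.037 and 0.0462 and lost their calls under total-count scaling (0.125 and 0.171), and 2 of the 9 were called without glucose-added A and 1 with limma on RPKM. Of the runs that rose, An16g01810 to An16g01840 held gpdA and 3 neighbours with changes between 1.05 and 1.48. Another, An03g00640 to An03g00680, held 5 genes with changes of 1.11 or more, and the third, An08g06540 to An08g06570, held 4 with changes between 1.19 and 2.14. With DESeq2 only gpdA of the first of these was called, since An16g01810, An16g01820 and An16g01840 had adjusted p of 0.123, 0.0606 and 0.139. In the second 3 of 5 were called, without An03g00650 (0.254) and An03g00680 (0.147), and in the third 3 of 4, without An08g06560 (0.138). The number of such runs was not tested.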

How the data were processed

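Per the labels' protocols, RNA of whole mycelium was freed of ribosomal RNA and sequenced on a SOLiD 5500xl, with paired reads of 50 and 35 bp. Each library was deposited with counts, whole numbers of reads per gene, and with RPKM values, per the file headers. The authors made both. HTSeq is named without a version in the submitters' processing notes, and the aligner, strand setting and genome build were not given in the sources used here. Without a known strand setting, reads of overlapping and antisense genes cannot be told apart, and multiply aligned reads were not counted, so values of near-identical genes are uncertain and a count of 0 is not absence of the transcript. The 5 entries per library that name no gene held 96.9% to 98.5% of reads and were left out. Of 15431 genes, 14114 have an An identifier and 129 a symbol in the RefSeq table used (assembly ASM285v2). Coordinates and sequences are not printed, and no value column was left unused (0 columns).

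The test was edgeR 4.0.16 (R 4.3.3) on the deposited counts, with TMM factors, filterByExpr at a minimum count of 10 and a minimum total of 15, glmQLFit and a two-sided glmQLFTest. P-values were adjusted after Benjamini and Hochberg over 6181 genes, with a threshold of 0.05. One fit held all 3 groups, 2 libraries each, with 3 residual degrees of freedom, and the common biological coefficient of variation was 25.8%. Each SE is the size of the log2 fold change over the root of F. The procedure was tested on simulated data. Genes with no count in a group are given against 3 counts over both libraries, and genes with 1 to 3 counts with an exact 95% interval of the ratio. P-values rest on the spread between 2 flasks per condition, which the design text calls duplicates. That spread was estimated over all 3 groups together, with information shared across genes.

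Named genes are the 12 largest gains and 12 largest losses in mean CPM, the 10 largest increases and 10 largest decreases of called genes without overlap whose mean RPKM reached 50, list members with a symbol, up to 3 called members per list without one, up to 5 genes per direction without a count in 1 condition, and the 3 longest runs per direction. Genes and lists were chosen with earlier results of these data known, and lists are described by counts and medians, with no test. Alternatives were RLE, upper quartile and total-count scaling, no filter, at least 50 counts in 2 libraries, DESeq2 1.42.0, a fit of both groups alone, the replicate block, limma 3.58.1 on log2(RPKM + 1), and leaving out each library. Shares of reads have 95% Wilson intervals.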

Additional observations from a re-analysis of the deposited data

How the results depend on the processing

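The reported fit called 2336 genes. Fits with each library left out in turn called 1496 to 2501 (783 to 1338 lower), the fewest without glucose-added A, of which 1446 to 2278 were among the 2336. With at least 50 counts in 2 libraries 2743 genes were tested and 1297 called (596 higher, 701 lower), and with limma on RPKM 1396 (515 lower), where 63.1% of calls were higher against 45.6% in the reported fit and 59.9% with total-count scaling. The library letters A and B do not mark shared batches in the labels, and only 2 letters exist. With a replicate block 2432 genes were called and inu1 was lost (adjusted p = 0.0611). Of 142 called genes under the naming rule, 78 were tested and kept their direction and side of the threshold under all 15 alternatives, 18 kept them wherever tested but were not tested under some (30 of the 142 had too few counts for the filter at 50), 46 missed the threshold under some, and none reversed where tested. Counts of called list members moved as follows. At 50 counts they were 1 for lytic polysaccharide monooxygenases, 6 for pectin, 1 for starch, 2 for regulators, 1 for proteases, 0 for hydrophobins, 2 for trehalose and 1 for sugar transporters. With limma on RPKM they were 1 for lytic polysaccharide monooxygenases, regulators and proteases and 0 for autophagy and trehalose. Total-count scaling gave 4 proteases and 3 folding genes, DESeq2 gave 2 regulators and 0 folding genes, and RLE scaling, the fit of both groups alone and the replicate block gave 2 trehalose genes each. With 1 library left out the counts were 1 to 2 for lytic polysaccharide monooxygenases, 1 to 3 for starch, 1 to 4 for regulators, 0 to 1 for folding, 1 to 2 for autophagy, 0 to 1 for translation and 0 to 1 for the alternative oxidase. Without the most abundant gene, the 10 genes with most reads took 18.9% and 16.02% on willow and 13.9% and 18.2% after glucose (20.1%, 18.5%, 19.4% and 21.8% with it), and the top 100 took 44.4%, 42.4%, 35.3% and 40.2%. Genes that were not called changed sign as follows. With limma on RPKM the log2 fold changes were PrtT 0.115, dapB 0.0624, pacC 0.125, proctase-A 0.127 and srgA 0.266, and with total-count scaling pacC had 0.116. With 1 library left out they ran from -0.506 to 0.216 for pacC, -0.626 to 6.41 for pepD, -0.949 to 0.0563 for proctase-A and -0.627 to 0.0795 for srgA. The planned search of promoters for motifs was not run. The cause of these changes was not tested.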

Other observations

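Of 271 tested genes without an An identifier 47 rose and 60 fell after glucose addition, shares near those over all tested genes (17.2% higher, 20.5% lower). The share of tested genes that passed grew with abundance. With tested genes divided into 4 equal classes by mean level, 10.8% of the lowest class were called higher and 15.8% lower, and of the highest class 26.6% and 26.7%.

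After glucose addition 2 of 122 genes with a mean of at least 1000 CPM differed at least 5-fold between libraries A and B, against 0 of 159 on willow. An16g04600 had 3222 CPM in A and 46866 CPM in B, a 14.5-fold gap, and Cscaffold2000728 had 2130 CPM in A and 22934 CPM in B, a 10.8-fold gap. Neither was called in the comparison with willow, and the cause of the gap was not tested. An16g04600 was also the gene with most reads in willow B.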
